A study of Saccharomyces cerevisiae with 8 samples.

Results

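The small ribosomal subunit protein genes are the nuclear protein-coding genes of the R64 genome whose symbol is RPS followed by a number and an optional A or B. The RefSeq annotation of that genome held 56 of them among 6002 nuclear protein-coding genes, 48 of them in 24 A and B paralog pairs and 8 in single copy (among them RPS2, RPS3, RPS12, RPS13, RPS15, RPS20 and RPS31). Each gene was described by the Rap1 peaks that overlapped the 500 bp before its start codon, and a gene with at least 1 such peak is called listed below. Rap1 was immunoprecipitated with an anti-Rap1 antibody from formaldehyde cross-linked Saccharomyces cerevisiae cultures, and the DNA was sequenced and turned into narrow peaks. There were 2 biological repeats at 14 d and 2 at 16 h of growth in YPD, a rich medium with glucose, at 30 degrees, and each repeat also had an input library without antibody. Both culture ages used the strain JDY86, the haploid parent of a histone H3 and H4 mutant library. Per the methods of the study it carries his3, leu2, trp1, ura3 and met15 alleles, the MFA1pr-HIS3 reporter at can1, NatMX4 in place of hht1-hhf1, and a single H3–H4 cassette marked with URA3 in place of hht2-hhf2. The labels name no histone substitution in these cultures. Chromatin came from bulk cultures, in which quiescent, non-quiescent and dead cells were not separated.

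Rap1 is a sequence-specific factor that binds the promoters of most ribosomal protein genes, telomere repeats and the silent mating-type loci of budding yeast. At ribosomal protein promoters it sits upstream of the start site and helps to hold Fhl1, Ifh1 and often Hmo1, and the release of Ifh1 lowers transcription of these genes when nutrients run out. The small subunit proteins bind the ribosomal RNA that reads the messenger, and most of them are encoded by duplicated genes left by the ancient whole-genome duplication.

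The lists differed more between repeats than between culture ages. They held 95 and 564 nuclear peaks at 14 d (repeat 1 and repeat 2) and 84 and 480 at 16 h. The read pileup of the genome background, recovered from the deposited values, was 1.71 and 11.7 reads at 14 d and 0.414 and 8.87 reads at 16 h, lower in repeat 1 at each age. A gene missing from a repeat 1 list is therefore not shown to be unbound, and whether depth or the enrichment of a library sets which genes are missing was not tested. At RPS16A, for example, the summit pileup at 14 d was 15 reads over a local background of 1.71 in repeat 1 and 798 reads over 15.8 in repeat 2. Repeat 1 lists also held mitochondrial peaks, 14 at 14 d and 3 at 16 h, whereas both repeat 2 lists held 0 of them among their 564 and 480 peaks. Peaks of the 14 d repeat 2 list carry the word merge in their names, and whether runs were pooled for it is not given in the sources used here.

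Nearly all small subunit genes had a Rap1 peak before their start codon in the repeat 2 libraries, at both culture ages. At 14 d, repeat 2 listed 51 of 56 genes (91.1%, exact 95% binomial interval 80.4 to 97.0%) and repeat 1 listed 6 (10.7%, 4.03 to 21.9%). At 16 h, repeat 2 listed 50 (89.3%, 78.1 to 96.0%) and repeat 1 listed 11 (19.6%, 10.2 to 32.4%). The intervals cover counting error over genes only. Of all 6002 nuclear genes, 11.4% were listed in repeat 2 and 1.68% in repeat 1 at 14 d, and 9.18% and 1.20% at 16 h, so the small subunit share lay above that of all genes in each of the 4 lists. The 82 large subunit genes, counted in the same way, had shares close to those of the small subunit: 89.0% and 8.54% at 14 d, and 86.6% and 17.1% at 16 h.

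**Figure D1:**
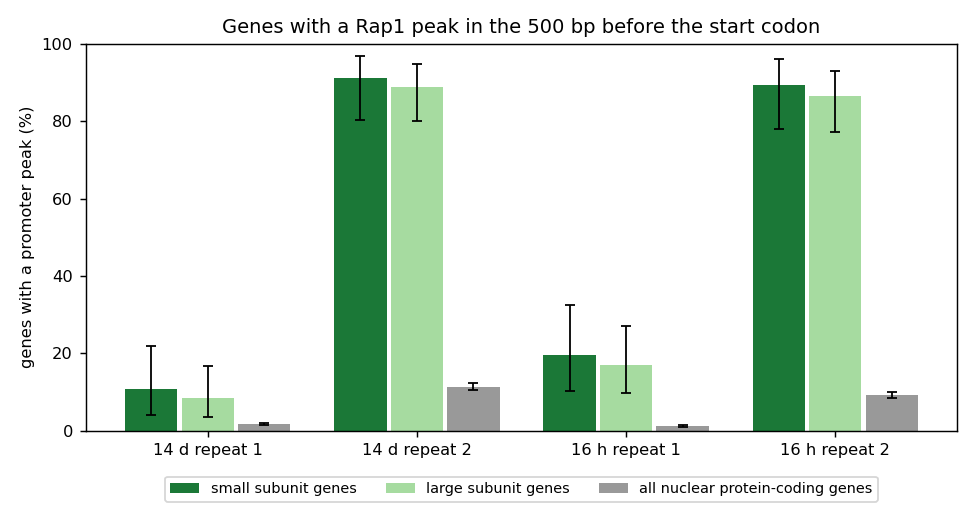
Share of genes with a Rap1 peak in the 500 bp before the start codon (y axis, percent) in each of the 4 libraries, for the 56 small subunit genes, the 82 large subunit genes and all 6002 nuclear protein-coding genes, with exact 95% binomial intervals as bars. Both repeat 2 libraries list about 9 in 10 small subunit genes (91.1% at 14 d and 89.3% at 16 h), and both repeat 1 libraries list 10.7% and 19.6%.

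The question of whether the share differed between the culture ages could be put to 2 libraries against 2. The share averaged 50.9 ± 56.8% at 14 d and 54.5 ± 49.2% at 16 h (SD, n = 2 each), a difference of -3.57 percentage points (two-sided exact permutation test, p = 1.00, where 0.333 is the smallest p that the design allows). Within repeat 1 the difference was -8.93 points and within repeat 2 it was 1.79 points, so the sign depended on the repeat. The spread between repeats was far larger than either difference.

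The lists were nested at the level of genes, and nearly so over all nuclear genes. Of all nuclear genes, 500 of the 551 listed at 16 h in repeat 2 were also listed at 14 d in repeat 2. Of all those listed in repeat 1, 100 of 101 at 14 d and 72 of 72 at 16 h were also in repeat 2 of that age. The nesting is thus not particular to the small subunit. All 50 small subunit genes listed at 16 h in repeat 2 were also listed at 14 d in repeat 2, and 35 of them were in those 2 lists alone. A further 9 were also in the 16 h repeat 1 list, 4 also in the 14 d repeat 1 list, and 2 genes, RPS15 and RPS16A, in all 4. The repeat 1 lists shared those 2 genes, 33.3% of the 6 at 14 d and 18.2% of the 11 at 16 h. Over all nuclear genes they shared 35, of 101 at 14 d and 72 at 16 h. The 14 d repeat 1 genes included RPS15, RPS16A, RPS25B, RPS26B and RPS30A, and the 16 h repeat 1 genes included RPS4A, RPS7A, RPS10B, RPS15, RPS16A, RPS18A, RPS19B, RPS22A, RPS24A and RPS31.

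Genes listed in repeat 1 had a higher median place in the repeat 2 list of the same age than the other listed genes, with a wide range. All 6 genes of the 14 d repeat 1 list had a peak in repeat 2, where their median fold percentile was 89.3 (66.4 to 97.4) against 79.2 for the other 45 genes. All 11 genes of the 16 h repeat 1 list had one in repeat 2, with a median percentile of 81.4 (58.6 to 95.5) against 74.5 for the other 39. RPS15, at 67.6 at 14 d and 58.6 at 16 h, lay below the median of the other genes at both ages. Fold percentile is the rank of a peak by fold enrichment within its own nuclear list, from 0 at the lowest to 100 at the highest. It is used because fold enrichment moves with depth and does not compare directly between lists. Where fold enrichment is set side by side between lists below, percentile differences are given for some comparisons only. The other pairs of fold values are not read as a change between lists. The choice of genes here follows from detection in a library of the same age, so these medians are a description.

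RPS15 and RPS16A, both proteins of the head of the small subunit, were the 2 genes listed in every library. RPS16A (YMR143W, chromosome XIII, 551928 to 552903, plus strand) had fold enrichments of 5.91 and 47.6 at 14 d in repeats 1 and 2, and of 7.64 and 30.3 at 16 h. Its peak ranked 81 of 95 and 15 of 564 at 14 d, and 39 of 84 and 35 of 480 at 16 h. It was thus near the bottom of the repeat 1 list and near the top of the repeat 2 list at 14 d. RPS15 (YOL040C, chromosome XV, 253149 to 253577, minus strand) had fold enrichments of 8.13 and 14.8 at 14 d and of 5.29 and 9.88 at 16 h. Its summit stood 347 and 388 bp upstream of the start codon at 14 d, and 336 and 375 bp upstream at 16 h. In contrast with RPS16A, it was the highest small subunit gene in the 14 d repeat 1 list (rank 66) while it ranked 183 and 199 in the repeat 2 lists at 14 d and 16 h.

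In 5 genes no library had a peak within 500 bp, among them RPS22B, RPS28A, RPS28B and RPS29A. They are all members of pairs, as are 48 of the 56 genes. All 8 single-copy genes were listed in both repeat 2 lists (exact 95% binomial interval 63.1 to 100%). Of the paired genes, 89.6% (77.3 to 96.5%) were listed at 14 d and 87.5% (74.8 to 95.3%) at 16 h in repeat 2. The intervals overlap, so these counts do not set single-copy genes apart. RPS26A was the 1 gene whose state differed between the repeat 2 lists, being listed at 14 d and not at 16 h. RPS26, a protein near the exit of the messenger channel, has its paralog RPS26B listed at both ages.

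The state of RPS26A turned on the edge of the window. At 14 d in repeat 2 its peak ran from 149067 to 149564 on chromosome VII (498 bp wide), with the summit 733 bp before the gene, rank 87 and a fold enrichment of 24.9. At 16 h in repeat 2 a peak ran from 149120 to 149511 (392 bp wide), with the summit 738 bp before it, rank 62 and a fold enrichment of 24.0. The summits lay 5 bp apart, and the near edge of the 16 h peak stood 532 bp from the start codon, outside the window.

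Widening the window to 1000 bp listed 53 and 6 genes at 14 d (repeat 2 and repeat 1), and 53 and 13 at 16 h, beside 13.7% and 2.33% of all nuclear genes at 14 d and 11.6% and 1.73% at 16 h. In the repeat 2 lists RPS29A was among the genes that gained a peak at both ages, and RPS26A gained one at 16 h. The 2 added in the 16 h repeat 1 list were RPS25B and RPS26B, which with the wider window had a peak in every library. The peak of RPS29A lay 792 bp upstream at 14 d and 777 bp at 16 h, with fold enrichments of 14.9 and 11.7. Its nearest start codon was that of REH1, a factor of large subunit maturation, 187 and 202 bp from the summit at 14 d and 16 h. Which gene such a peak belongs to was not tested.

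RPS22B, RPS28A and RPS28B stayed without a peak at both window sizes. The nearest summit on the upstream side of RPS22B was 33486 bp away at 14 d and 37438 bp at 16 h in repeat 2. For RPS28A, a small head protein gene, the distances were 21963 and 21957 bp, and for RPS28B 14696 and 21989 bp, at 14 d and 16 h. The 2 RPS28 genes were thus the 1 pair in which neither member was listed. A missing peak says that none passed the peak caller in these libraries, and weaker binding was not tested.

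Where they were listed in repeat 2, small subunit genes stood in the upper part of the list. Their median fold percentile was 79.4 at 14 d and 75.2 at 16 h in repeat 2, against 54.8 and 51.7 for all genes with a promoter peak in those lists, and 73.3 and 70.1 for the large subunit. In repeat 2, 32 of 51 genes lay above a percentile of 75 at 14 d and 26 of 50 at 16 h, and 47 and 43 lay above 50. Of all genes with a promoter peak, 195 of 686 at 14 d and 144 of 551 at 16 h lay above 75, and 372 and 284 above 50. For the large subunit genes these counts were 35 of 73 and 31 of 71, and 67 and 54. In repeat 1 the place was different. The median percentile there was 12.4 at 14 d and 40.5 at 16 h, against 44.7 and 35.7 for all genes with a promoter peak. Above 75 lay 0 of 6 small subunit genes at 14 d and 0 of 11 at 16 h, beside 15 of 101 and 6 of 72 of all genes with a promoter peak.

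**Figure D2:**
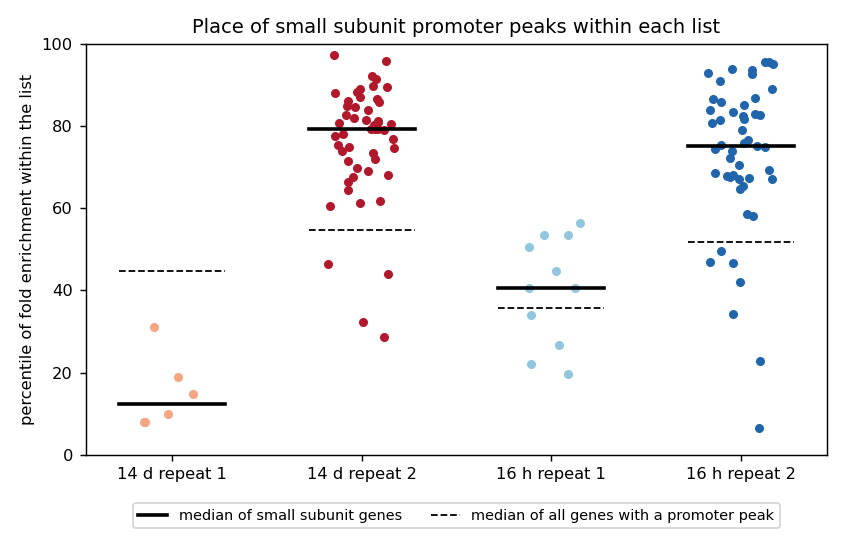
Percentile of fold enrichment within the nuclear peaks of each list (y axis, 0 to 100) for every listed small subunit gene, 1 point a gene, in the 4 libraries. Solid lines are the medians of these genes (12.4 and 79.4 at 14 d, 40.5 and 75.2 at 16 h, repeat 1 then repeat 2), and dashed lines the medians of all genes with a promoter peak. The genes sit high in the repeat 2 lists and low in the 14 d repeat 1 list.

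The median fold enrichment of the listed genes was 20.7 at 14 d (4.56 to 47.6) and 16.4 at 16 h (2.84 to 37.2) in repeat 2, and 5.54 (4.80 to 8.13) and 6.36 (5.29 to 7.78) in repeat 1. Fold enrichment is the summit pileup over the local background, each with 1 added. Recovered pileups at the summit had a median of 262 reads at 14 d and 199 reads at 16 h in repeat 2, but of 14 and 9 reads in repeat 1. Over libraries the median percentile averaged 45.9 ± 47.4 at 14 d and 57.8 ± 24.6 at 16 h (SD, n = 2 each; difference -11.9, exact permutation p = 1.00), with differences of -28.1 within repeat 1 and 4.22 within repeat 2.

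The 5 genes with the highest mean percentile over the repeat 2 lists were RPS25B (95.8), RPS16A (95.1), RPS7A (93.9), RPS14B (92.6) and RPS16B (91.7). RPS25B (YLR333C, chromosome XII, 795573 to 795899, minus strand), whose protein lies in the head near the exit site for transfer RNA, had fold enrichments of 42.2 at 14 d (rank 24) and 37.2 at 16 h (rank 21), with recovered pileups of 536 and 435 reads. RPS7A, a body protein gene, had fold enrichments of 35.6 at 14 d and 36.6 at 16 h. RPS14B, whose protein lines the platform, had 33.9 at 14 d and 34.0 at 16 h, and RPS16B had 30.8 and 33.7. All 5 ranked among the first 58 of 564 peaks at 14 d and the first 35 of 480 at 16 h.

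The 5 lowest of the 50 genes listed in both were RPS21A (mean percentile 17.5), RPS3 (27.6), RPS24B (39.2), RPS9A (44.2) and RPS13 (54.4). RPS21A (YKR057W, chromosome XI, 551657 to 552242, plus strand) had a fold enrichment of 4.56 with a pileup of 57 reads at 14 d, and 2.84 with 27 reads at 16 h, where its peak ranked 448 of 480. RPS3, whose protein guards the entry of the messenger channel and which has no paralog, had 4.91 at 14 d and 4.29 at 16 h. RPS24B had 6.75 and 5.54, RPS9A, a gene for a protein tied to decoding accuracy, had 7.15 and 6.49, and RPS13 had 12.0 and 7.20 at 14 d and 16 h. Thus a single-copy gene such as RPS3 stood near the bottom of the small subunit genes at both ages.

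**Figure D3:**
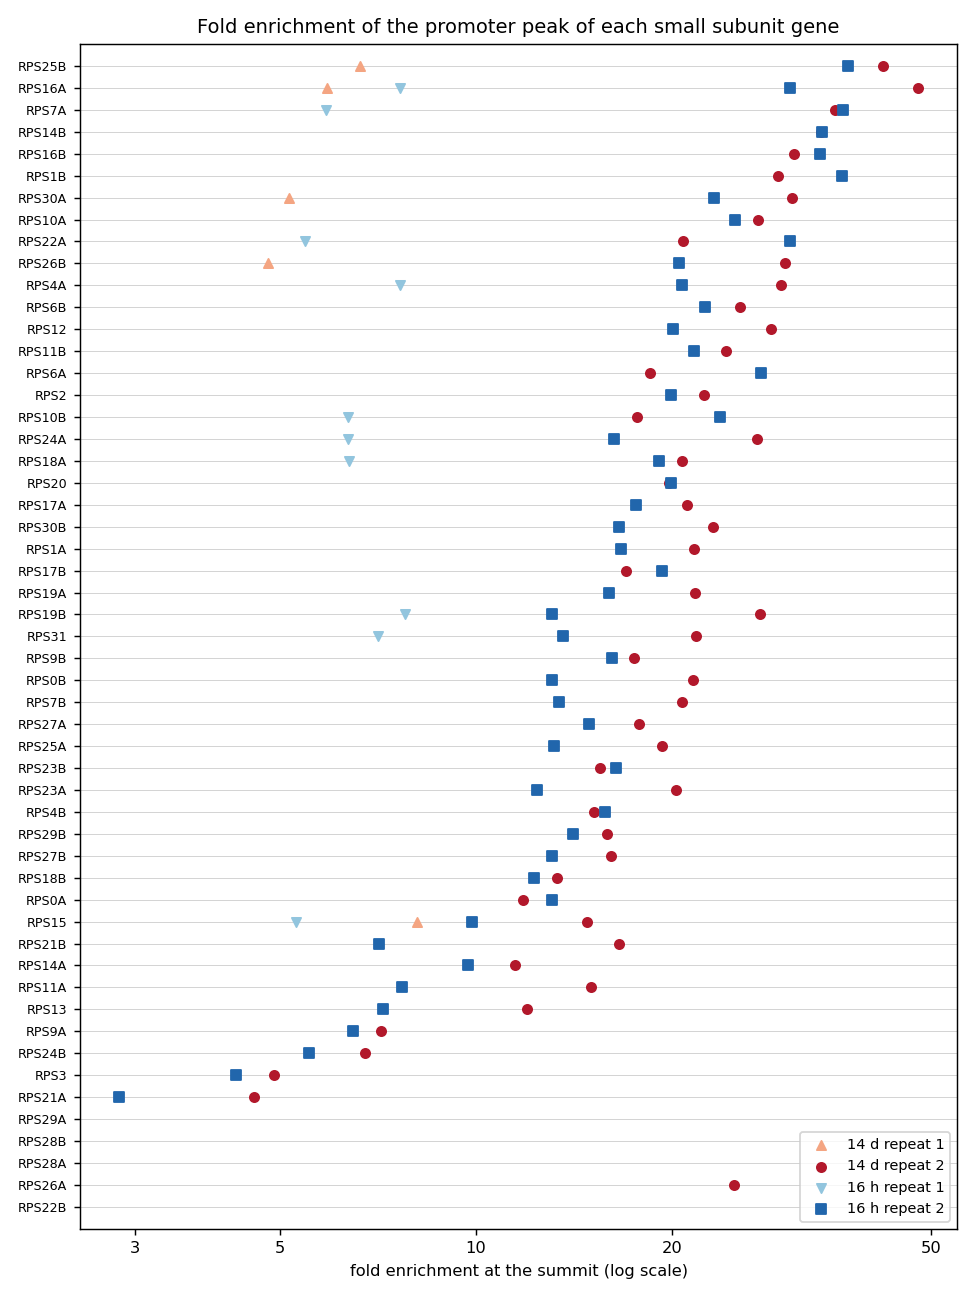
Fold enrichment of the promoter peak (x axis, log scale) in 49 listed small subunit genes, among 53 of the 56 genes on the y axis, where a row without a symbol is a gene without a peak, ordered by mean percentile over the 2 repeat 2 lists, with 1 symbol per library. RPS26A, listed at 14 d in repeat 2 alone (fold enrichment 24.9), has no such mean. It is drawn at the bottom with the genes without a peak, and its place there is not a low rank. The repeat 2 symbols of a gene lie close together compared with the range over genes, from 2.84 for RPS21A at 16 h to 47.6 for RPS16A at 14 d, and the repeat 1 symbols all lie between 4.80 and 8.13.

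The order of the genes was shared by the repeat 2 lists. Across the 50 genes listed in both, the Spearman correlation of fold enrichment was 0.794, given as a description because the genes of a library share its depth and its input. Between the 2 repeats at 16 h it was -0.091 over 11 genes. In 16 h repeat 1 their fold enrichments spanned only 5.29 to 7.78, on pileups of 7 to 15 reads. So few genes over so narrow a range cannot show whether the order was shared there. Between 16 h repeat 1 and 14 d repeat 2 the correlation was 0.616 over 11 genes, and for the 6 genes of 14 d repeat 1 it was not computed. Of the 50 genes listed in both repeat 2 lists, 38 had a higher fold enrichment at 14 d and 12 a lower one. The median log2 difference was 0.22 (-0.57 to 1.23), while it was 0.33 over all 500 genes listed in both. By percentile 29 genes were higher at 14 d and 21 lower, with a median difference of 2.76. With 1 repeat 2 library per age these differences have no replicate check. The background pileup also differed between the 2 lists (11.7 reads at 14 d and 8.87 at 16 h), and its part in them was not tested.

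The genes at the ends of the range of the 14 d to 16 h ratio of fold enrichment were RPS21B at the high end and RPS6A at the low end. They were chosen after their values were seen, outside the rule by which genes were named. RPS21B had a fold enrichment of 16.6 at 14 d and 7.11 at 16 h in repeat 2, a ratio of 2.34. RPS6A, a gene for a protein phosphorylated under TORC1 control, had 18.5 at 14 d and 27.4 at 16 h, a ratio of 0.674. By percentile the 14 d minus 16 h difference was 26.9 points in RPS21B and -14.2 in RPS6A, also the ends of the range. Neither gene was listed in repeat 1.

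Peak summits lay upstream of the start codon in every listed gene, at similar distances at both ages in repeat 2. The median distance was 338 bp at 14 d (194 to 733 bp, quartiles 262.5 and 422 bp) and 335.5 bp at 16 h (187 to 723 bp, quartiles 264.5 and 410.5 bp) in repeat 2. Of the listed genes, 34 of 51 at 14 d and 36 of 50 at 16 h had their summit between 200 and 400 bp, and 6 and 5 had it beyond 500 bp. All genes with a promoter peak had medians of 366 bp at 14 d and 343 bp at 16 h in the same lists. Of them, 275 of 686 at 14 d and 235 of 551 at 16 h lay between 200 and 400 bp, and 186 and 111 beyond 500 bp. For the large subunit genes these counts were 56 of 73 and 54 of 71, and 5 and 4. In repeat 1 the medians were 481 bp over 6 genes at 14 d and 310 bp over 11 genes at 16 h.

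Summits stood at nearly the same place at both culture ages in repeat 2. For the 50 genes listed in both repeat 2 lists, the distance at 14 d minus that at 16 h had a median of 2 bp and ranged from -18 bp in RPS7A to 28 bp in RPS11A. The 2 summits were within 20 bp of each other in 49 genes and within 10 bp in 34. The median absolute difference was 7 bp, and it was also 7 bp over all 500 genes listed in both. Between repeats of the same age the gap was wider, with a median of 53 bp over 6 genes at 14 d (largest 179 bp) and of 29 bp over 11 genes at 16 h (largest 50 bp). Over all genes listed in both repeats it was smaller, 22.5 bp over 100 genes at 14 d and 21.0 bp over 72 at 16 h. In repeat 1 the 2 small subunit genes listed at both ages differed by 11 bp (RPS15) and 168 bp, RPS16A having its summit 467 bp upstream at 14 d and 299 bp at 16 h. Summits of the repeat 1 lists rested on pileups of 12 to 21 reads at 14 d and 7 to 15 reads at 16 h.

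**Figure D4:**
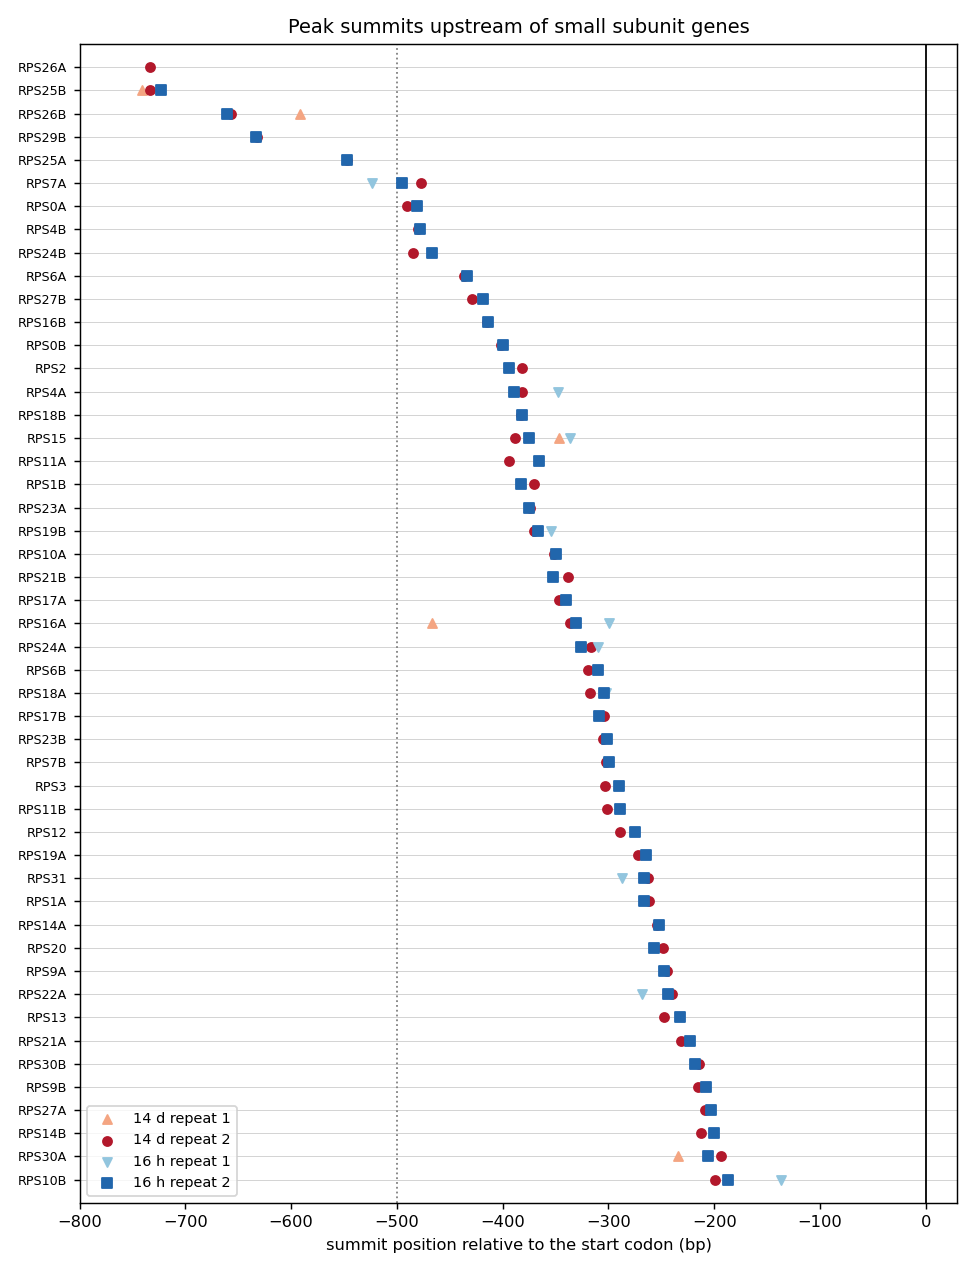
Distance from the peak summit to the start codon (x axis, bp, with 0 at the start codon, negative values upstream and a dotted line at 500 bp) of 49 small subunit genes listed in repeat 2 (y axis), 1 symbol per library. In repeat 2 the distances of the 2 ages fall on each other to within 20 bp in 49 of the 50 genes listed at both, with medians of 338 bp at 14 d and 335.5 bp at 16 h.

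The nearest summits over the repeat 2 lists belonged to RPS10B (mean 193 bp), RPS30A (200 bp), and RPS14B and RPS27A (206 bp each, a tie). RPS10B, a head protein gene, had its summit 199 bp upstream at 14 d and 187 bp at 16 h in repeat 2, and 137 bp at 16 h in repeat 1. RPS30A had 194 bp at 14 d and 206 bp at 16 h in repeat 2, and 234 bp at 14 d in repeat 1. Among the farthest were RPS25B (mean 728 bp) and RPS26B (659 bp). RPS25B had 733 bp at 14 d and 723 bp at 16 h in repeat 2, and 741 bp at 14 d in repeat 1. RPS26B had 657 bp at 14 d and 661 bp at 16 h in repeat 2, and 592 bp at 14 d in repeat 1, where its peak rested on 12 reads. RPS25B was thus both the farthest and the highest by mean percentile among the 50 genes listed in both repeat 2 lists.

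Over libraries the median distance averaged 410 ± 101 bp at 14 d and 323 ± 18.0 bp at 16 h (SD, n = 2 each), a difference of 86.8 bp with p = 0.333, the smallest that this exact permutation test can give. The difference was 171 bp within repeat 1, where it compares different genes, and 2.50 bp within repeat 2.

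Peaks were wider at 14 d in each of the 50 genes listed in both repeat 2 lists. The median width was 491 bp at 14 d and 361 bp at 16 h in repeat 2, and 312 and 270 bp in repeat 1. The median gene was 126.5 bp wider at 14 d in repeat 2, and over all 500 genes listed in both it was 129.5 bp wider, close to the value for the small subunit. The widths of a list also have a floor that differs between the lists, the narrowest peaks being 232 bp at 14 d and 179 bp at 16 h in repeat 2, and 286 and 194 bp in repeat 1. Its part in the width difference was not tested. Over libraries the median width averaged 402 ± 127 bp at 14 d and 316 ± 64.3 bp at 16 h (SD, n = 2 each; difference 86.0 bp, exact permutation p = 0.667), with 42.0 bp within repeat 1 and 130 bp within repeat 2.

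Some small subunit genes shared their peak with a neighbouring gene, most often a divergent one. Of the 56 genes, 34 had a divergent upstream neighbour and 22 a tandem one. In repeat 2 the peaks of 26 of 51 genes at 14 d and 24 of 50 at 16 h also overlapped the 500 bp before another start codon. The same share over all listed genes was not computed, so the counts of shared peaks are not read as a trait of these genes. In all, 686 genes were listed at 14 d from a list of 564 nuclear peaks, and 551 at 16 h from 480. The start codon nearest to the summit was the small subunit gene's own in 35 genes at each age and another gene's in 16 at 14 d and 15 at 16 h, all but 1 of them, at 14 d, facing away from the small subunit gene. Each listed gene had a peak of its own that no other small subunit gene shared.

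In 4 genes the peak was shared with a large subunit gene. RPS15 shared it with RPP2A, a stalk protein gene, RPS16A with RPL13B, RPS16B with RPL13A, and RPS22A with RPL39, at both ages in repeat 2. The summit between RPS16B and RPL13A lay 415 bp from the RPS16B start codon at 14 d and 414 bp at 16 h, and 220 and 221 bp from that of RPL13A. In RPS16A and RPS22A the small subunit start codon was the nearer one, at 336 and 240 bp at 14 d and at 331 and 244 bp at 16 h. The summit fell between genes in 50 of 51 genes at 14 d and 49 of 50 at 16 h in repeat 2. The exception at both ages was RPS30B, whose summit lay inside FYV12. The same share over all listed genes was not computed, so this placement is not read as a trait of these genes.

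Most paralog pairs had both members listed in the repeat 2 libraries, and the heights of the 2 peaks differed within pairs. Of 24 pairs, 20 had both members listed, 3 had one and 1 had neither at 14 d in repeat 2, and 19, 4 and 1 at 16 h. The pairs with one member listed at both ages included RPS22 (RPS22A) and RPS29 (RPS29B), and RPS26 (RPS26B) joined them at 16 h. In repeat 1 no pair had both members listed, against 5 pairs at 14 d and 8 at 16 h with one. The members were thus in the same state in 79.2% and 87.5% of pairs at 14 d (repeats 1 and 2), and in 66.7% and 83.3% at 16 h. In repeat 2, 89.6% of the 48 paired genes were listed at 14 d and 87.5% at 16 h, so agreement in most pairs goes with a high listing of every gene and says little about pairs as such. With each peak assigned to the nearest start codon, the members were in the same state in 58.3% of pairs at each age in repeat 2. The 35 large subunit pairs were in the same state in 80.0% and 88.6% at 14 d, and in 74.3% and 94.3% at 16 h. The small subunit share averaged 83.3 ± 5.89% at 14 d and 75.0 ± 11.8% at 16 h (SD, n = 2 each; difference 8.33 points, exact permutation p = 0.667), with 12.5 points within repeat 1 and 4.17 points within repeat 2. Reads that map equally to both copies could be split between paralogs, and how such reads were treated is not given in the sources used here.

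The fold enrichment of an A gene was nearly unrelated to that of its B paralog. Across the 20 pairs at 14 d and 19 at 16 h with both members listed in repeat 2, the Spearman correlation between A and B was 0.008 at 14 d and 0.160 at 16 h for fold enrichment, and 0.317 and 0.204 for summit distance. These are descriptions over few pairs of 1 library each. The members of a pair differed by a median of 12.0 percentile points at 14 d (3.37 to 44.9) and 10.5 at 16 h (0.208 to 40.9). Their summits differed in distance by a median of 95.5 bp at 14 d (20 to 220 bp) and 89 bp at 16 h (12 to 216 bp). In 14 of the 19 pairs the same member was higher at both ages, and in 5 the order turned round. The A member had the higher mean percentile in 10 pairs and the B member in 9. In the 30 large subunit pairs listed in full at each age, the correlation of fold enrichment was 0.122 at 14 d and 0.253 at 16 h. Their members differed by medians of 16.0 and 12.0 percentile points, and of 78.5 and 69.5 bp in distance. Weak relations and gaps within pairs are thus not particular to the small subunit.

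**Figure D5:**
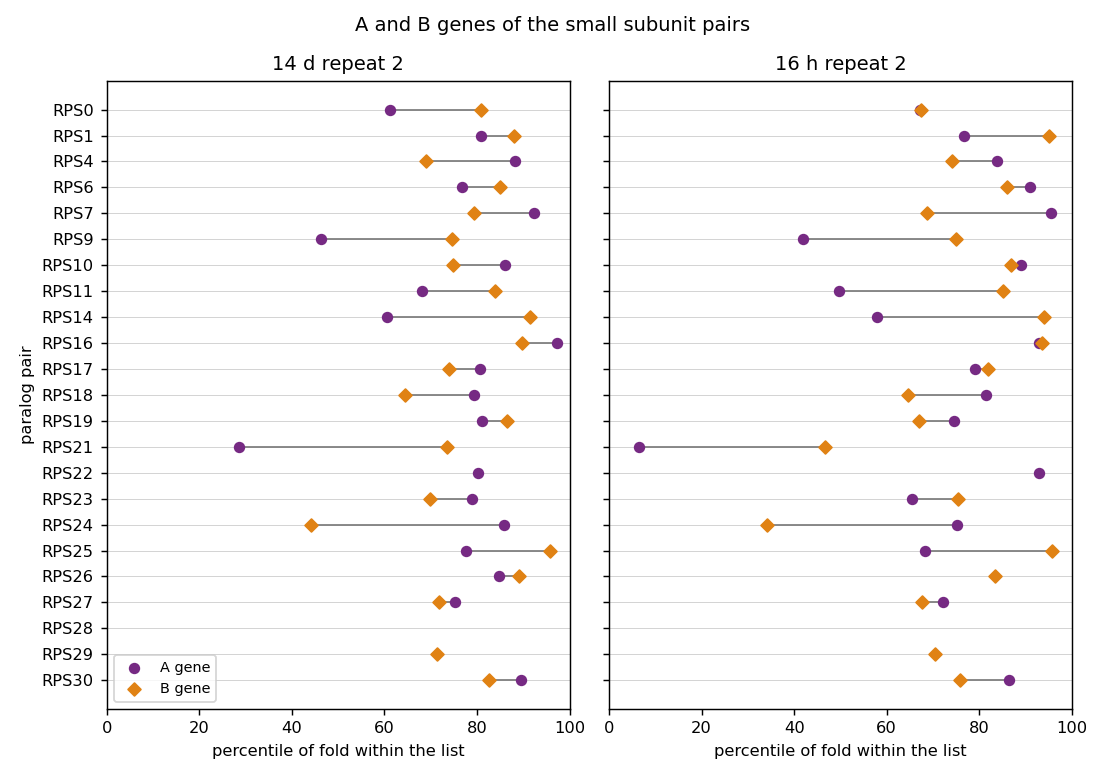
Percentile of fold enrichment of the A gene and of the B gene of 23 small subunit pairs (y axis) in the repeat 2 libraries at 14 d and 16 h, on an x axis of 0 to 100, with a line joining the members where both were listed. RPS21, RPS24 and RPS14 have the longest lines, 42.5, 41.3 and 33.4 percentile points on average, and RPS28 has no symbol.

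The 3 pairs with the largest gap kept its direction at both ages. RPS21, a pair for a small protein that contacts RPS0 in the body, had differences (A minus B) of -44.9 percentile points at 14 d and -40.1 at 16 h, the B gene being the higher one. In RPS24 the A gene was the higher one, by 41.8 points at 14 d and 40.9 at 16 h, with fold enrichments for RPS24A of 27.0 and 16.3 against 6.75 and 5.54 for RPS24B. In RPS14 the B gene was the higher one, with differences of -30.9 points at 14 d and -35.8 at 16 h, with 33.9 and 34.0 for RPS14B against 11.5 and 9.73 for RPS14A.

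The 3 pairs with the smallest mean gap were RPS23 (-0.33 percentile points, A minus B), RPS19 (1.05) and RPS6 (-1.62). In each of them the small mean came from opposite signs at the 2 ages. RPS23A, whose protein lies at the decoding centre, had a fold enrichment of 20.3 at 14 d and 12.4 at 16 h, while RPS23B had 15.5 and 16.4. RPS19A had 21.7 and 16.0 while RPS19B had 27.3 and 13.1, and RPS6A had 18.5 and 27.4 while RPS6B had 25.4 and 22.5.

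Genes for proteins of the head and of the body of the subunit were listed at similar shares in the repeat 2 libraries, as a description with no test. Of 22 head protein genes, 19 were listed at 14 d and 19 at 16 h in repeat 2, with median percentiles of 79.4 and 80.7. Of 34 body and platform protein genes, 32 and 31 were listed, with medians of 79.2 and 74.9. In repeat 1, 3 head and 3 body genes were listed at 14 d, and 7 head and 4 body genes at 16 h. Genes with a divergent neighbour (31 of 34 at both ages) and with a tandem one (20 of 22 at 14 d and 19 of 22 at 16 h) were listed at similar shares in repeat 2. The 10 regulators of these genes that were counted were FHL1, IFH1, CRF1, SFP1, HMO1, RAP1, ABF1, REB1, SCH9 and TOR1. Of them, 0 and 0 were listed at 14 d (repeats 1 and 2), and 0 and 1 at 16 h. The shares of all nuclear genes were 1.68% and 11.4% at 14 d and 1.20% and 9.18% at 16 h, so these counts do not set the regulators apart. With 10 genes a share of up to 30.8% is allowed where none was listed (exact 95% binomial interval). With the 1000 bp window 1 and 1 regulators were listed at 14 d, and 0 and 2 at 16 h.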

How the data were processed

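The authors trimmed reads with Trim Galore, aligned them to R64 with Bowtie2 and called narrow peaks with MACS2, 1 list per ChIP library; tool versions are not given in the sources used here. The 4 input libraries entered only through that calling. Per the deposited lists, each peak has a start, an end, a summit, a score, a fold (ratio) enrichment, and −log10 p and −log10 q values. Positions are given counted from 1.

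Gene positions came from the RefSeq table of R64 (6002 nuclear protein-coding genes). Where several peaks met a window, the one with the highest fold was used. Summit pileup and background were solved from fold and −log10 p, on the assumption that the ChIP pileup had not been scaled down (solved for 100% of peaks), after a test on simulated data. Library values were compared by two-sided exact permutation tests (Python 3.11.15, numpy 2.4.6, pandas 2.3.3, scipy 1.17.1). p-values measure the spread between the biological repeats. Members and lists were chosen with earlier results of these data known. Genes were named by a rule: those without a peak, in all 4 lists or changing state; extremes of percentile, distance and pair difference; and those sharing a peak with a large subunit gene. Alternatives were a 1000 bp window, the summit inside the window, the nearest start codon, the top 84 peaks, a −log10 q minimum of 5, pileup ranks, leaving out libraries and a replicate block. The planned search for motifs was not run. All 56 genes enter every count, and values of a few of them are not reported here.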

Additional observations from a re-analysis of the deposited data

How the results depend on the processing

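The repeat 1 lists hold 95 and 84 nuclear peaks at 14 d and 16 h, so a gene absent from them is not shown to be unbound. With 2 libraries per age no exact permutation test could fall below p = 0.333. The number of listed small subunit genes (51 at 14 d and 50 at 16 h in repeat 2) changed by over 1.5 times with the top 84 peaks only (13 at 14 d and 17 at 16 h in repeat 2, and 3 of 6 at 14 d in repeat 1).

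Assigning each peak to the nearest start codon left 35 genes at 14 d and 35 at 16 h in repeat 2, with 58.3% of pairs in the same state at each age. Requiring the summit inside the window left 45 at 14 d in repeat 2. The share of all nuclear genes was not computed under the nearest start codon, the summit rule, the q minimum or the top peaks. These settings only take listings away, so that share could not exceed its main value. The main values were 1.68% and 11.4% at 14 d (repeats 1 and 2), and 1.20% and 9.18% at 16 h. The lowest small subunit shares under these settings were 5.36% and 23.2% at 14 d, and 16.1% and 30.4% at 16 h. The small subunit share thus stayed above that of all genes in each list. The 14 d minus 16 h differences kept their sign under the wider window, the summit rule, the nearest start codon, the q minimum and the top peaks.

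Leaving out 1 library at a time gave differences of -43.8 to 36.6 points in the share listed, -45.5 to 21.6 in the median percentile, 15.2 to 158 bp in the distance, -3.50 to 176 bp in the width, and 0 to 16.7 points in the share of pairs in the same state. The share and the percentile turned positive without 14 d repeat 1 (36.6 and 21.6) and without 16 h repeat 2 (31.2 and 5.42). The width turned negative without 14 d repeat 2 (-3.50), and the pair difference came to 0 without 16 h repeat 1.

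With a replicate block (sign-flip exact permutation within repeat number, smallest p 0.5) the differences were -3.57 points (p = 1.00), -11.9 percentile points (p = 1.00), 86.8 bp in distance, 86.0 bp in width and 8.33 points for pairs (each p = 0.5), and it changed no call. The labels do not say that a repeat number marks a shared day or culture, and only 2 genes were in all 4 lists, so the pairing was not checked further. The motif search and its alternative were not run because no promoter sequence was used here.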
